A study of Homo sapiens with 6 samples.

Results

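Cardiolipin synthesis and remodelling was followed through 10 human genes chosen by name: PRELID1, TAMM41, CDS1, CDS2, PGS1, PTPMT1, CRLS1, LCLAT1, HADHA and PLSCR3. Every probe set of the array whose annotation names 1 of these genes and no other was taken. That gave 28 of 49293 probe sets, and 9 of the 10 genes. PLSCR3 had none under this rule. The pathway was picked with the endosulfan and control values of these same arrays known, and the CRLS1 difference was among those that drew attention to it. The differences below are therefore a description, and no test of a member is offered as support.

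RNA came from SH-SY5Y, an established human neuroblastoma line with catecholaminergic, neuron-like features. There were 3 arrays of cells given endosulfan at 3 µM for 24 h and 3 arrays of control cells. Endosulfan, an insecticide of the organochlorine class, is known as an antagonist of GABA-gated chloride channels. Whether control cells were given a vehicle is not stated in the labels. All cells were grown in the same serum-containing medium, and the labels call the arrays biological replicates without naming separate cultures or days. Any p-value thus measures only the spread between these arrays, which may be technical. Each value is a log2 RMA value, a background-corrected and quantile-normalized summary of the probes of 1 probe set, so a difference of 1 is a doubling. Levels of different probe sets are not on a common scale, because probes bind with different strength.

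Cardiolipin is the signature phospholipid of the inner mitochondrial membrane, where it holds respiratory chain complexes and carriers in place and shapes the cristae. It is built inside the mitochondrion from phosphatidic acid, which is activated to CDP-diacylglycerol, joined to glycerol phosphate, dephosphorylated to phosphatidylglycerol and then joined to a further CDP-diacylglycerol. The fresh molecule is remodelled by removal and replacement of its acyl chains. In neurons, cardiolipin that reaches the mitochondrial surface is known as a signal for mitophagy.

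The bacterial poly-A transcripts spiked into the RNA before labelling had means of 7.81, 7.73 and 8.80 in endosulfan arrays 1 to 3, against 6.13, 7.73 and 5.84 in control arrays 1 to 3 (log2, two-sided exact permutation p = 0.2). The first principal component, with its sign set so that endosulfan array 1 is positive, ran from 61.8 in endosulfan array 1 to -71.6 in control array 1. On it the groups did not overlap, but endosulfan array 2 at -1.81 lay beside control array 2 at -2.33. Of the neuroblastoma markers, 8 of 10 were measured, all above the array median on every array, with mean levels of 10.96 to 11.04 in endosulfan and 11.23 to 11.33 in control arrays, with 4 markers higher and 4 lower. Of the 8, 3 were lower and 0 higher in endosulfan arrays without overlap, beside 10.2% and 12.4% of all genes. Epithelial markers averaged 4.80 to 4.94 in endosulfan and 4.63 to 4.80 in control arrays. Haematopoietic markers averaged 3.88 to 3.95 and 3.77 to 3.92 in those groups, and endothelial markers 5.42 to 5.68 and 5.30 to 5.63. The 2 Schwann or glial markers measured averaged 5.73 to 6.05 in endosulfan and 5.84 to 5.92 in control arrays. Above the array median on all 6 arrays were 2 of 4 epithelial, 0 of 3 haematopoietic, 2 of 3 endothelial and 2 of 2 glial markers. The part of these array differences in the results was not tested.

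Across the 28 cardiolipin probe sets, 17 were higher and 11 lower in endosulfan arrays. Their median log2 difference was 0.05, and that of all 49293 probe sets was also 0.05. None of the 28 passed limma's test at a Benjamini-Hochberg adjusted p below 0.05 over all probe sets, where 0.00811% of all probe sets passed, and the smallest adjusted p among the 28 was 0.215. At an unadjusted p below 0.05 there were 4 higher and 4 lower, beside backgrounds of 6.3% higher and 9.21% lower over all probe sets. The groups did not overlap in 6 higher and 5 lower probe sets, beside backgrounds of 11.5% and 9.24%. The choice of the pathway used this contrast, so nothing is read from these shares. In RNA from whole cultures, fewer cells of a type and less RNA per cell cannot be told apart.

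**Figure D1:**
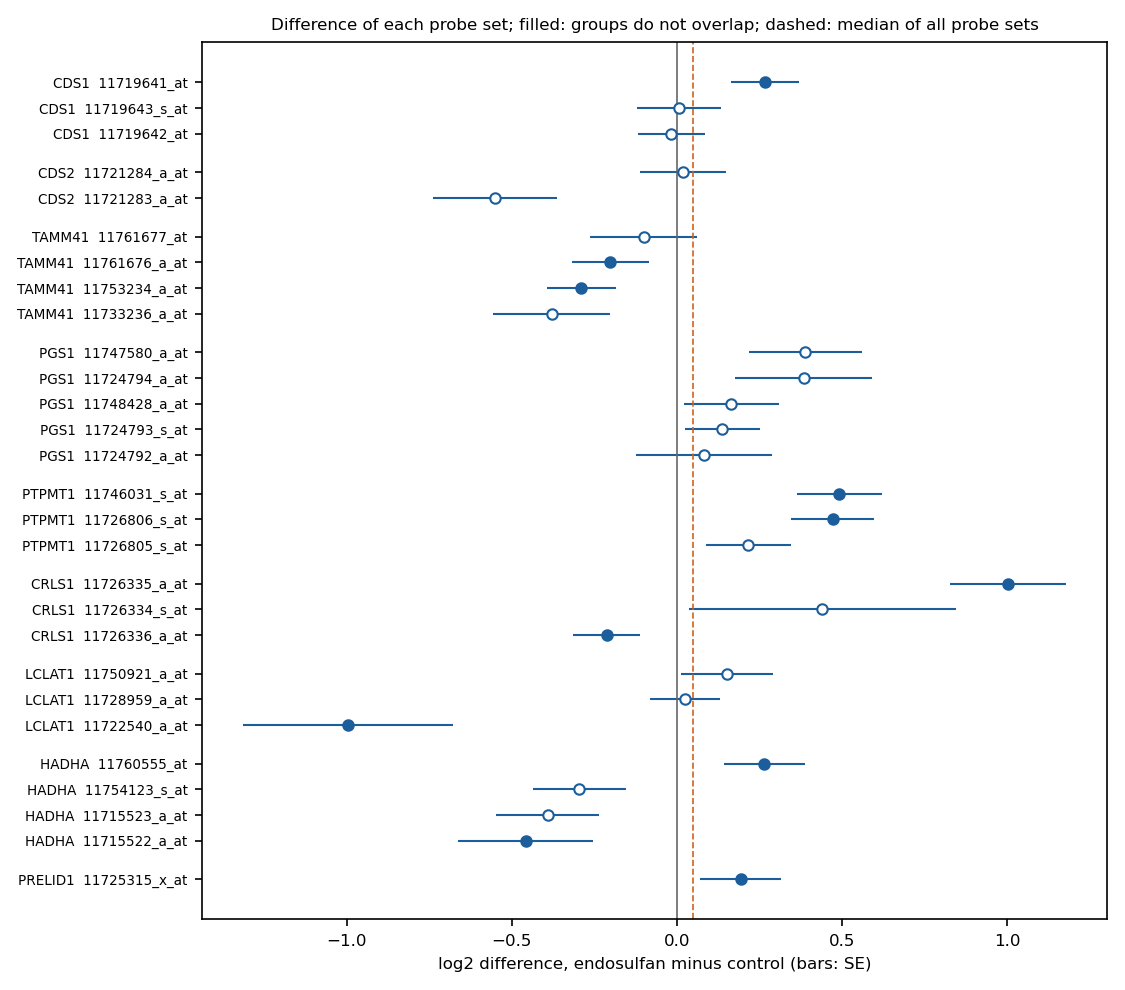
Log2 difference, endosulfan minus control, of each of the 28 cardiolipin probe sets, with bars of 1 SE (n = 3 arrays a group). Filled points are probe sets whose groups do not overlap, and the dashed line is the median of all probe sets. CRLS1 and LCLAT1 hold the ends of the range, at 1.00 and -0.995, and probe sets of a gene often fall on both sides of 0.

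Probe sets of the same gene often disagreed. Of the 8 genes with several probe sets, PGS1 and PTPMT1 were higher on all of them and TAMM41 was lower on all of them. The other 5, CRLS1, LCLAT1, HADHA, CDS1 and CDS2, had probe sets of both signs. By level, 19 of the 28 lay above the array median on all 6 arrays, 8 lay below it on all 6, and 1 crossed it. The array's 23 background probe sets, which have no target, had medians of 3.01 to 3.22 over the arrays.

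CRLS1 encodes cardiolipin synthase, the last enzyme of the pathway, which joins phosphatidylglycerol to CDP-diacylglycerol. Its brightest probe set, 11726335_a_at, was at 9.43, 9.59 and 9.25 in endosulfan arrays, against 8.60, 8.62 and 8.05 in control arrays. The groups did not overlap, and the lowest endosulfan array stood well above the highest control array. The means were 9.43 ± 0.17 and 8.42 ± 0.32 (SD, n = 3 each), a log2 difference of 1.00 ± 0.18 (SE). The CRLS1 difference was among those that drew attention to the pathway, so this value and those that follow only describe it. Endosulfan arrays 1 and 2, whose spike-in level is close to that of control array 2, were higher than that array by 0.90 on average. Adjusted for the spike-in mean of each array, the difference was 0.87 ± 0.28 (SE). Over the alternatives fitted to this probe set alone it ran from 0.82 to 1.10. Averaging the probe sets of CRLS1 gave a smaller difference, stated below.

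The second bright probe set of CRLS1, 11726334_s_at, was at 7.76, 9.14 and 7.91 in endosulfan arrays, against 8.25, 8.08 and 7.17 in control arrays. Here the groups overlapped: endosulfan array 2 was far above the rest, and the other two endosulfan arrays lay below control arrays 1 and 2. The log2 difference was 0.44 ± 0.40 (SE), within the spread between replicates. The dim probe set, 11726336_a_at, ran the other way, at 4.53, 4.49 and 4.64 in endosulfan arrays, against 4.78, 4.69 and 4.82 in control arrays. Those groups did not overlap, though the log2 difference was only -0.21 ± 0.10 (SE), and all 6 values lay below the array medians of 4.89 to 4.94. The mean over the 3 probe sets differed by 0.41 ± 0.18 (SE).

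**Figure D2:**
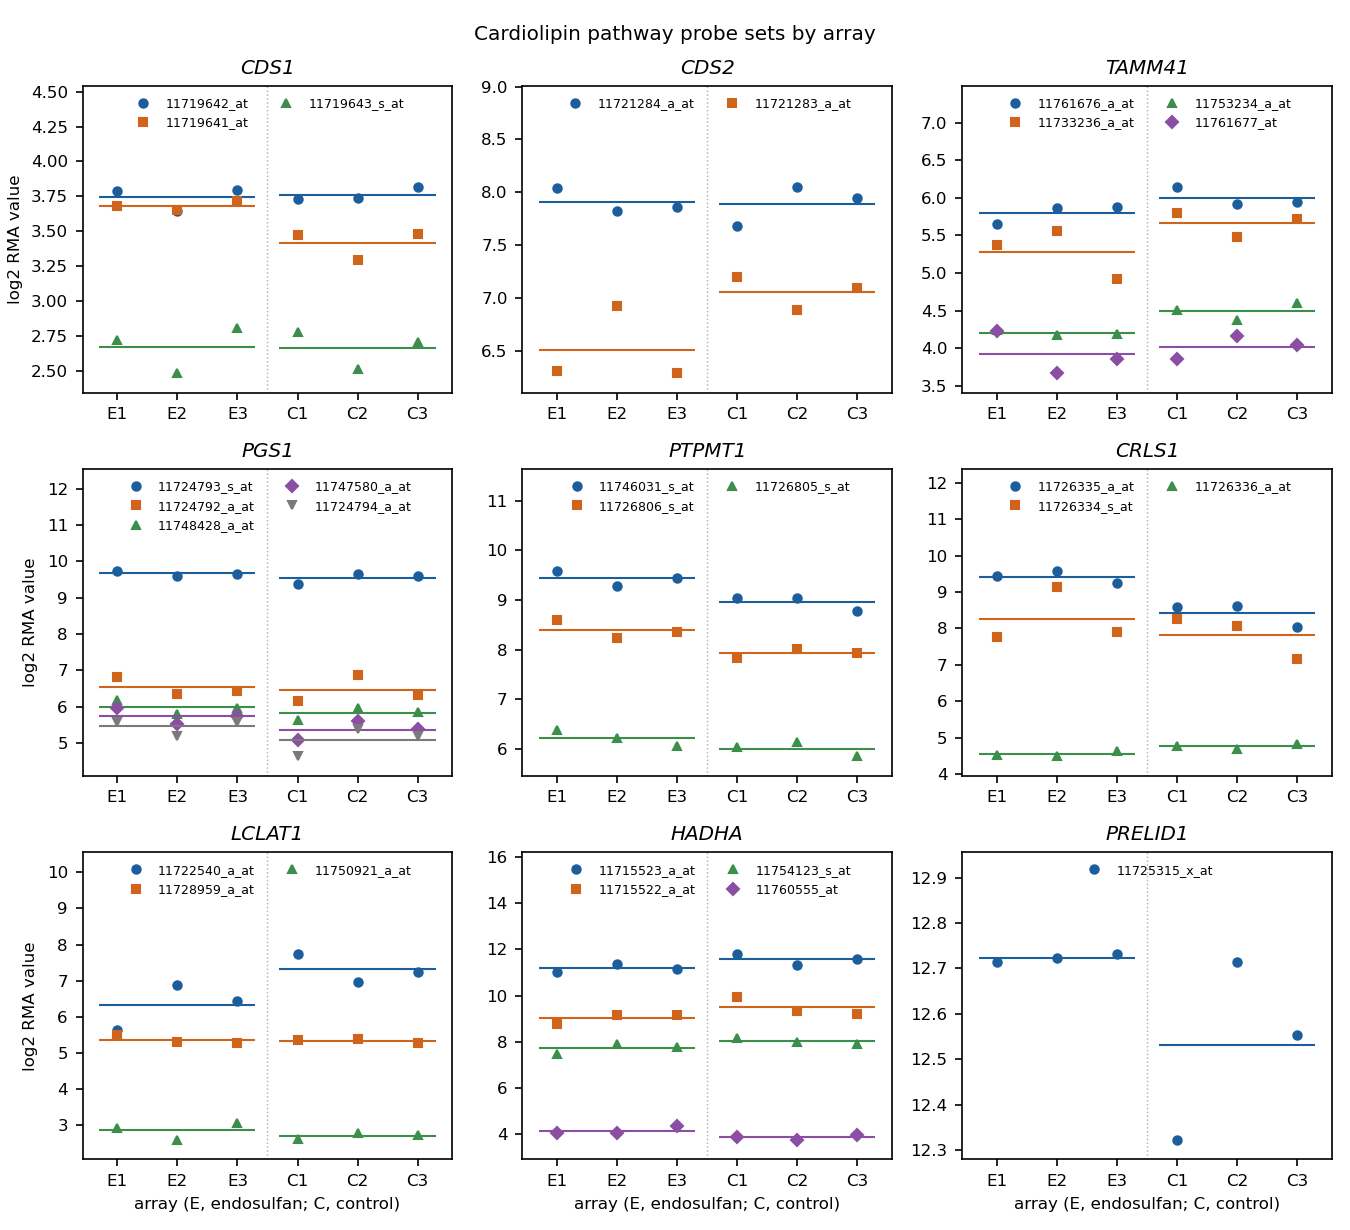
Log2 RMA value of each cardiolipin probe set on each array, 1 panel a gene, with horizontal lines at the group means (E1 to E3, endosulfan; C1 to C3, control; the vertical scale differs between panels). The upper CRLS1 probe set and the 2 upper PTPMT1 probe sets lie higher on all 3 endosulfan arrays, while the upper LCLAT1 probe set, 11722540_a_at, spreads widely within both groups.

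PTPMT1 is the mitochondrial phosphatase that turns phosphatidylglycerol phosphate into phosphatidylglycerol, the step before CRLS1. Its brightest probe set, 11746031_s_at, was at 9.60, 9.29 and 9.45 in endosulfan arrays, against 9.05, 9.04 and 8.77 in control arrays, with no overlap. The means were 9.45 ± 0.15 and 8.95 ± 0.16 (SD, n = 3 each), and the log2 difference was 0.49 ± 0.13 (SE), or 1.41-fold. Probe set 11726806_s_at gave much the same picture, with 8.61, 8.24 and 8.35 in endosulfan arrays, against 7.84, 8.02 and 7.93 in control arrays, and a log2 difference of 0.47 ± 0.13 (SE). The dimmest of the 3, 11726805_s_at, overlapped, at 6.39, 6.22 and 6.07 in endosulfan arrays, against 6.03, 6.15 and 5.85 in control arrays. Its log2 difference was 0.22 ± 0.13 (SE). Adjusted for the spike-in mean, the 3 differences were 0.37, 0.41 and 0.16, in the same order. All 3 carry the suffix that marks probes shared between transcripts. A further probe set, annotated to PTPMT1 together with NDUFS3, a complex I subunit, is not counted among them. Its values differed from those of 11746031_s_at by 0.04 on average and by at most 0.14 on any array. Whether 11746031_s_at reads PTPMT1 alone cannot be told from these values.

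PGS1 makes phosphatidylglycerol phosphate from CDP-diacylglycerol and glycerol phosphate, the committed step of the branch. Its brightest probe set, 11724793_s_at, was at 9.75, 9.60 and 9.65 in endosulfan arrays, against 9.36, 9.64 and 9.59 in control arrays. Control array 1 was the low value and the other two controls lay within the endosulfan range or just under it, so the groups overlapped, with a log2 difference of 0.14 ± 0.11 (SE). The largest difference was that of 11747580_a_at, at 5.97, 5.53 and 5.74 in endosulfan arrays, against 5.07, 5.61 and 5.39 in control arrays, or 0.39 ± 0.17 (SE). Probe set 11724794_a_at differed by 0.38 ± 0.21 (SE), 11748428_a_at by 0.16 ± 0.14 (SE) and 11724792_a_at by 0.08 ± 0.21 (SE). Adjusted for the spike-in mean, 11747580_a_at differed by 0.16, 11724793_s_at by 0.05, 11724794_a_at by 0.04, 11748428_a_at by 0.04 and 11724792_a_at by -0.28. All 5 probe sets of PGS1 overlapped between groups, and in all 5 control array 1 was the lowest of the 6 arrays.

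CDP-diacylglycerol is made by TAMM41 in the mitochondrial inner membrane, and by CDS1 and CDS2 in the endoplasmic reticulum. All 4 probe sets of TAMM41 were lower in endosulfan arrays. The brightest, 11761676_a_at, was at 5.65, 5.87 and 5.88 in endosulfan arrays, against 6.14, 5.92 and 5.95 in control arrays. The groups were separated by a narrow margin, and the log2 difference was -0.20 ± 0.12 (SE). Probe set 11753234_a_at, below the array median throughout, was at 4.25, 4.17 and 4.19 in endosulfan arrays, against 4.51, 4.37 and 4.60 in control arrays, or -0.29 ± 0.10 (SE), again without overlap. The remaining pair overlapped. Probe set 11733236_a_at differed by -0.38 ± 0.18 (SE), which became 0.01 ± 0.21 (SE) after adjustment for the spike-in mean, and 11761677_at by -0.10 ± 0.16 (SE). With the same adjustment, 11761676_a_at differed by -0.18, 11753234_a_at by -0.16 and 11761677_at by -0.21.

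The 2 probe sets of CDS2 did not tell the same story. The brighter, 11721284_a_at, was at 8.04, 7.82 and 7.86 in endosulfan arrays, against 7.68, 8.05 and 7.95 in control arrays, and its log2 difference was 0.02 ± 0.13 (SE). The other, 11721283_a_at, was at 6.31, 6.93 and 6.29 in endosulfan arrays, against 7.20, 6.88 and 7.09 in control arrays. Endosulfan arrays 1 and 3 were low while endosulfan array 2 lay among the controls, and the log2 difference of -0.55 ± 0.19 (SE) became -0.245 ± 0.265 (SE) after adjustment for the spike-in mean. CDS1 was dim on all 3 of its probe sets, with values from 2.48 to 3.80 in endosulfan and 2.51 to 3.81 in control arrays, near the background medians. Of these, 11719641_at was at 3.68, 3.66 and 3.72 in endosulfan arrays, against 3.48, 3.29 and 3.48 in control arrays, a log2 difference of 0.27 ± 0.10 (SE) at a level where little target is measured. The groups did not overlap there, and all 6 values lay above the background medians. Adjusted for the spike-in mean, the difference was 0.37 ± 0.16 (SE). The other probe sets of CDS1 differed by -0.02 and 0.01.

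PRELID1 shuttles phosphatidic acid between the mitochondrial membranes as a complex with TRIAP1, and so feeds the pathway. It had 1 probe set, 11725315_x_at, whose suffix marks probes that may also bind other transcripts, and which was bright. Values were 12.71, 12.72 and 12.73 in endosulfan arrays, against 12.32, 12.71 and 12.55 in control arrays. Control array 2 matched the endosulfan arrays almost exactly, and the log2 difference was 0.19 ± 0.12 (SE), or 0.03 after adjustment for the spike-in mean. TRIAP1, its partner, was at 7.87, 8.40 and 7.75 in endosulfan arrays, against 8.52, 7.57 and 7.41 in control arrays, and the groups overlapped.

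Among genes with several probe sets, those with every probe set on the same side of 0 were PTPMT1, PGS1 and TAMM41, and their RefSeq promoter windows are shown for that reason. After adjustment for the spike-in mean this still held for PTPMT1, but 1 probe set each of PGS1 and TAMM41 changed side. Each window is the 250 bases before the transcript start (GRCh38.p14, RefSeq), on the gene's own strand. Capitals mark GGGCGG, the GC box bound by SP factors, or GCGC and GCGC with 2 bases between them, a core of the site of NRF1, a regulator of nuclear genes for mitochondria. Both strands were searched.
PTPMT1, chr11:47565349-47565598, plus strand: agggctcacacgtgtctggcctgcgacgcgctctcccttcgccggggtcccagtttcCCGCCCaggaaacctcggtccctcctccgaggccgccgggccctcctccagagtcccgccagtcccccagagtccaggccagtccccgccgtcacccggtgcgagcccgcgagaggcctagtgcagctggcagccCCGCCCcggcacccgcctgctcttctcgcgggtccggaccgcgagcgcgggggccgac
PGS1, chr17:78378399-78378648, plus strand: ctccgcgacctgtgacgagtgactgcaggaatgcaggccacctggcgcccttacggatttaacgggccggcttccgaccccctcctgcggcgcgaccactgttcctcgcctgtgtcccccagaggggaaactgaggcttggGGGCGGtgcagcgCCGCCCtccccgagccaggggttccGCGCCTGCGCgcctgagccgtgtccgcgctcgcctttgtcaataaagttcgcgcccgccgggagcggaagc
TAMM41, chr3:11846886-11847135, minus strand: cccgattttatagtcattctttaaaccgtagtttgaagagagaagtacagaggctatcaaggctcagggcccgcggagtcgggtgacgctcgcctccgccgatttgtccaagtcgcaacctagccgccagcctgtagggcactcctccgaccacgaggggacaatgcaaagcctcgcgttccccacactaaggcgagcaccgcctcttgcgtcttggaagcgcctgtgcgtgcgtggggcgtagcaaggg

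PTPMT1 held 2 GC boxes and no NRF1 core, PGS1 held 2 GC boxes and 1 NRF1 core, and TAMM41 held neither. Their G and C content was 75.2%, 69.6% and 59.6%, and the median of the 35116 windows in the table was 58.0%. Over the 10 genes, 7 windows held a GC box and 3 an NRF1 core, namely PGS1, CDS2 and PRELID1. The 10 include the CRLS1 window, which held neither. Of all windows of this length, 42.6% held the first and 7.16% the second. These shares make no allowance for G and C content, so nothing is read from them. A match describes letters and is not a measured site. The window listed for CRLS1 starts from a transcript 1311 bases inside the gene and is not shown.

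LCLAT1, also called ALCAT1, is a lysocardiolipin acyltransferase that reattaches acyl chains during remodelling. Its brightest probe set, 11722540_a_at, was at 5.65, 6.88 and 6.43 in endosulfan arrays, against 7.75, 6.96 and 7.23 in control arrays. The groups did not overlap, but endosulfan array 2 and control array 2 were almost level. The means were 6.32 ± 0.62 and 7.31 ± 0.40 (SD, n = 3 each), with a log2 difference of -0.995 ± 0.318 (SE), the lowest of the 28. It was -0.66 without endosulfan array 1, and -0.44 ± 0.19 (SE) without endosulfan array 1 and control array 1 together. Adjusted for the spike-in mean of each array, the difference was -0.72 ± 0.50 (SE). The mean of endosulfan arrays 1 and 2, whose spike-in level is close to that of control array 2, differed from that array by -0.69. Over the alternatives fitted to this probe set alone the difference ran from -1.27, without endosulfan array 2, to -0.44. Averaging the 3 probe sets of LCLAT1 gave -0.27 ± 0.11 (SE). The 2 dimmer probe sets, 11728959_a_at and 11750921_a_at, differed by 0.02 ± 0.10 (SE) and 0.15 ± 0.14 (SE), and the last of these was below the background medians, with means of 2.87 in endosulfan and 2.72 in control arrays.

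HADHA is the alpha subunit of the mitochondrial trifunctional protein of fatty acid oxidation, and has also been described as a monolysocardiolipin acyltransferase. Its brightest probe set, 11715523_a_at, was at 11.02, 11.36 and 11.14 in endosulfan arrays, against 11.81, 11.31 and 11.57 in control arrays, or -0.39 ± 0.15 (SE). Endosulfan array 2 lay just above control array 2, so the groups overlapped, and the difference was -0.14 ± 0.22 (SE) after adjustment for the spike-in mean. Probe set 11715522_a_at was at 8.79, 9.16 and 9.18 in endosulfan arrays, against 9.95, 9.35 and 9.21 in control arrays, or -0.46 ± 0.21 (SE). There the groups were barely apart, and without endosulfan array 1 and control array 1 together the difference was -0.11. Adjusted for the spike-in mean, it was -0.44 ± 0.34 (SE). Probe set 11754123_s_at differed by -0.30 ± 0.14 (SE) with overlap, and by -0.30 ± 0.23 (SE) after the same adjustment. The dim 11760555_at was higher instead, at 4.05, 4.04 and 4.34 in endosulfan arrays, against 3.91, 3.78 and 3.96 in control arrays, or 0.26 ± 0.12 (SE). Its adjusted difference was 0.25 ± 0.20 (SE). HADHB, the beta subunit of the same enzyme, overlapped, with means of 10.17 ± 0.05 in endosulfan and 10.07 ± 0.17 in control arrays (SD, n = 3 each).

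**Figure D3:**
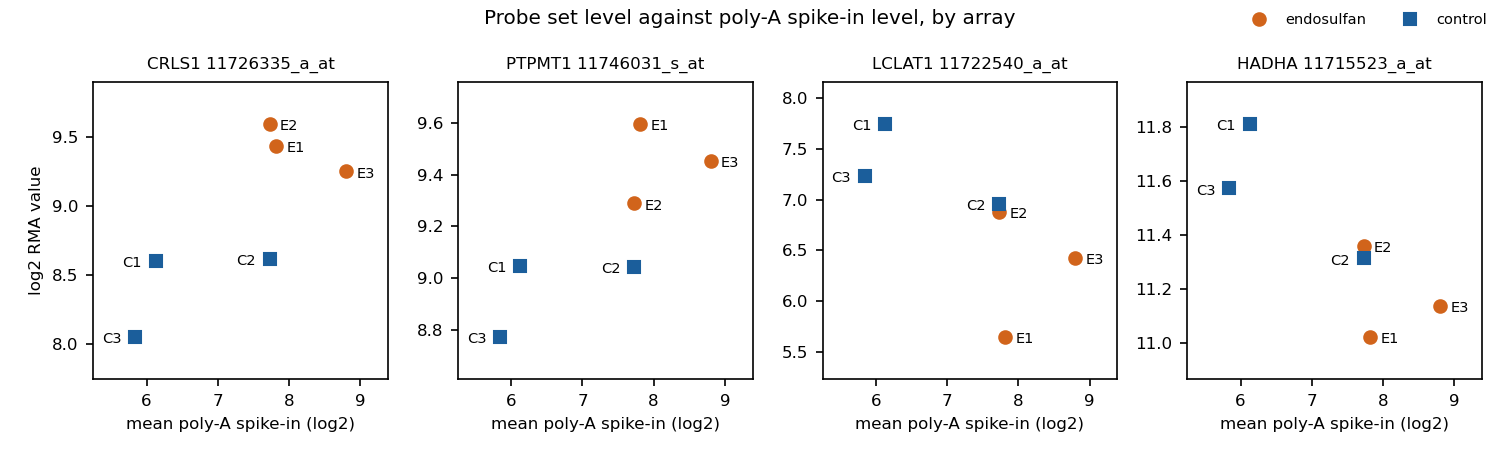
Log2 RMA value of the brightest probe set of CRLS1, PTPMT1, LCLAT1 and HADHA against the mean log2 level of the poly-A spike-ins on the same array (circles, endosulfan E1 to E3; squares, control C1 to C3). At a spike-in level near 7.73, E2 lies above C2 for CRLS1, at 9.59 and 8.62, and beside it for LCLAT1, at 6.88 and 6.96. E1, at a spike-in level of 7.81, lies above C2 for CRLS1, at 9.43, and below it for LCLAT1, at 5.65.

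Set side by side, the members showed patterns over the arrays that the group labels do not fully describe. For the brightest probe sets of LCLAT1, HADHA and TAMM41, endosulfan array 1 was lowest and control array 1 highest, with endosulfan array 2 and control array 2 close together. The brightest PGS1 probe set ran the opposite way, with endosulfan array 1 highest and control array 1 lowest. These are the 2 arrays at the ends of the first principal component, and the part of that component in the differences was not tested. CRLS1 did not follow this order, since its highest array was endosulfan 2 and its lowest was control 3.

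The 5 genes whose brightest probe set ran most like that of CRLS1 over the 6 arrays were DYNLT2B, GLTP, MPC2, CNIH4 and FDX1. Their Pearson r with CRLS1 lay between 0.989 and 0.996, a description over 6 arrays that share group, spike-in level and normalization, picked from all genes measured. MPC2, a subunit of the mitochondrial pyruvate carrier, and FDX1, the mitochondrial ferredoxin, had log2 differences of 0.70 and 0.73. The dynein light chain gene DYNLT2B, the glycolipid transfer protein GLTP and the cargo receptor family member CNIH4 were at 0.50, 0.47 and 0.46.

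Around the pathway, 7 lists with 93 measured genes were read with 1 probe set a gene, the brightest. They were drawn up with earlier results of these data known. None of the 93 genes passed limma's test at a Benjamini-Hochberg adjusted p below 0.05 over 18132 genes, where 0.00552% of all genes passed. At an unadjusted p below 0.05, 11 were higher and 15 lower, beside 6.64% and 10.5% of all genes. The groups did not overlap for 18 higher and 14 lower genes, beside 12.4% and 10.2% of all genes. AGPAT3 and SLC25A6 had no probe set of their own. On the higher side were 52 of the 93, beside 10907 of all 18132 genes. The median log2 difference of the 93 was 0.07, and that of all genes was 0.05.

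The list of further remodelling and turnover genes had 8 members on the higher and 3 on the lower side, with a median of 0.09. TAFAZZIN, the transacylase whose loss causes Barth syndrome, was at 7.53, 7.35 and 7.22 in endosulfan arrays, against 7.04, 7.45 and 7.36 in control arrays, with overlap and a difference of 0.09 ± 0.15 (SE). The prohibitin PHB1, part of the inner membrane scaffold that organises cardiolipin, was at 11.91, 11.82 and 11.83 in endosulfan arrays, against 11.27, 11.64 and 11.49 in control arrays, without overlap. DNAJC19, which works with prohibitins in remodelling, differed by 0.49 ± 0.16 (SE), although its other probe set had the opposite sign. The phospholipase PNPLA8 differed by -0.44 ± 0.20 (SE) with overlap.

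Among 11 phospholipid transfer and scrambling genes, 6 were on the higher and 5 on the lower side, with a median of 0.00. PRELID3A and PRELID2, relatives of PRELID1, differed by -0.67 ± 0.20 (SE) and 0.34 ± 0.13 (SE), each with a second probe set of the opposite sign, and the mitoguardin gene MIGA1 by 0.20 ± 0.12 (SE) with overlap. All 6 values of MIGA1, 2.78 to 2.97 in endosulfan and 2.59 to 2.82 in control arrays, lay below the background medians. The 13 genes of phosphatidic acid synthesis and use had a median of 0.09. LPIN1, the phosphatidic acid phosphatase lipin, was at 6.78, 7.51 and 7.03 in endosulfan arrays, against 8.83, 7.84 and 8.10 in control arrays, or -1.15 ± 0.28 (SE). Its groups did not overlap, and 2 of its 3 probe sets were lower. The acyltransferase AGPAT2 differed by 0.40 ± 0.17 (SE) and the acylglycerol kinase AGK by -0.59 ± 0.27 (SE) with overlap, and 2 of the 3 AGK probe sets had the opposite sign.

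The 9 genes of phosphatidylserine and phosphatidylethanolamine synthesis, the other phospholipid branch that mitochondria share, had the highest list median, 0.32, with 6 higher and 3 lower. CEPT1, which makes phosphatidylcholine and phosphatidylethanolamine, was at 5.85, 7.20 and 6.16 in endosulfan arrays, against 5.91, 5.60 and 4.83 in control arrays. Endosulfan array 2 was the highest and control array 3 the lowest, endosulfan array 1 lay under control array 1, and the difference was 0.96 ± 0.39 (SE). SELENOI, the ethanolamine phosphotransferase, differed by -0.85 ± 0.23 (SE) without overlap, with 2 of its 3 probe sets lower, and the ethanolamine kinase ETNK2 was higher by 0.35 ± 0.15 (SE) without overlap.

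For the 18 genes of cristae and inner membrane dynamics, 10 were on the higher and 8 on the lower side, and at an unadjusted p below 0.05 there were 1 higher and 6 lower, beside 6.64% and 10.5% of all genes. OPA1, the fusion GTPase of the inner membrane that binds cardiolipin, was at 4.88, 5.50 and 5.53 in endosulfan arrays, against 6.11, 5.84 and 6.38 in control arrays, with all 5 probe sets lower and a difference of -0.81 ± 0.21 (SE). The fission GTPase DNM1L differed by -0.81 ± 0.27 (SE) with overlap and 3 of its 4 probe sets lower, and the MICOS subunit APOOL by -0.57 ± 0.18 (SE) without it. Of 16 genes of mitochondrial beta oxidation 10 were higher and 6 lower, with a median of 0.07, and of all 18132 genes 10907 were higher. At an unadjusted p below 0.05 there were 4 higher and 2 lower, beside 6.64% and 10.5% of all genes. CPT2, the carnitine palmitoyltransferase of the inner membrane, was at 6.88, 6.74 and 6.69 in endosulfan arrays, against 6.31, 6.45 and 6.17 in control arrays. ACADVL, the very long chain acyl-CoA dehydrogenase, and the electron transfer flavoprotein subunit ETFB differed by 0.33 ± 0.12 (SE) and 0.48 ± 0.17 (SE).

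The 15 genes of carriers, protein import and mitochondrial mass had the lowest list median, -0.17, with 10 on the lower side. TOMM20, a receptor of the outer membrane import pore, was at 8.12, 9.40 and 8.91 in endosulfan arrays, against 10.75, 9.57 and 9.89 in control arrays, or -1.25 ± 0.38 (SE). Here too endosulfan array 2 and control array 2 were close. Citrate synthase, CS, differed by -0.38 ± 0.12 (SE) and the import channel gene TIMM23 by -0.71 ± 0.22 (SE), both without overlap.

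**Figure D4:**
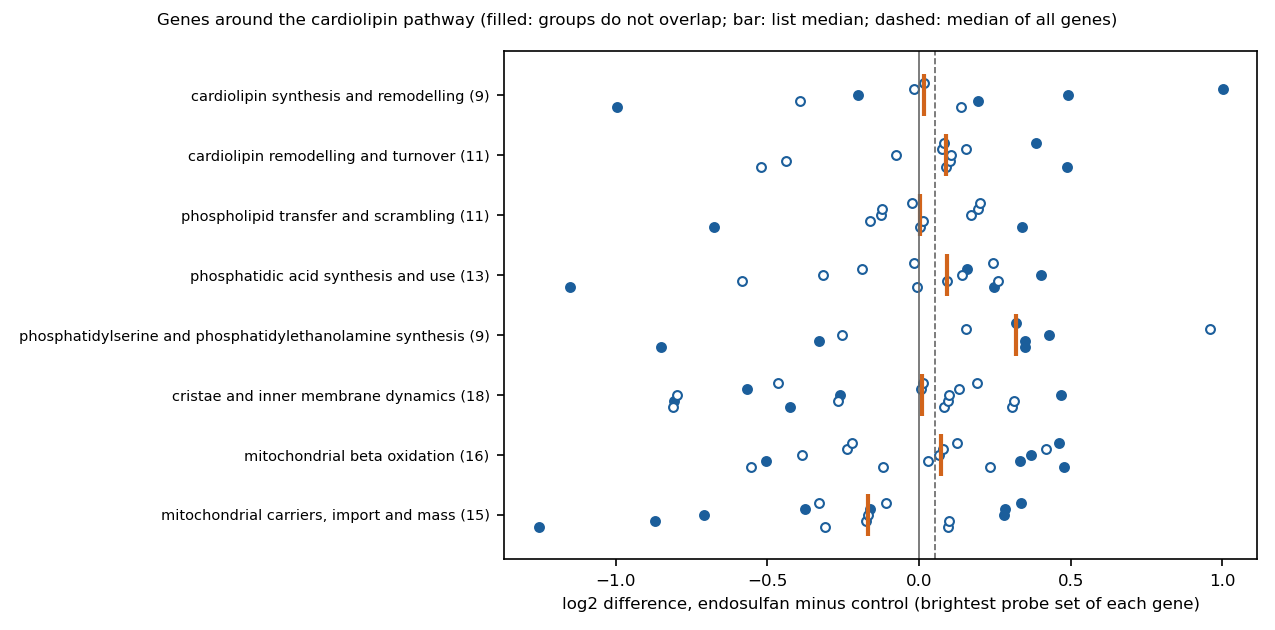
Log2 difference, endosulfan minus control, of the brightest probe set of each gene in the cardiolipin pathway and in the 7 lists around it, with the number measured in brackets. Filled points are genes whose groups do not overlap, orange bars are list medians, and the dashed line is the median of all genes; medians run from -0.17 to 0.32.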

How the data were processed

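Total RNA of SH-SY5Y cells was labelled with biotin and read on 6 one-colour arrays. The authors deposited 1 table of log2 values, made with Affymetrix Expression Console and RMA per the submitters' processing notes. No version is stated there. The quantile step of RMA takes out a shift that most transcripts share. No probe set was dropped for low signal, and the number of arrays limits the precision.

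Groups came from the labels' agent field. After 102 control probe sets were set aside, 49293 were fitted, of which 44988 named 1 gene, 1832 several and 2473 none in the platform annotation; 44961 one-gene identifiers were found in RefSeq (GRCh38.p14). Endosulfan minus control was fitted with limma 3.58.1 in R 4.3.3 (lmFit, eBayes), two-sided, with Benjamini-Hochberg adjustment across the 49293 probe sets or, taking the brightest one a gene, across 18132 genes. The threshold was an adjusted p below 0.05. The fit was tested on simulated data with independent noise. At the threshold it recovered 12% of log2 changes of 0.585, 48% of changes of 1, 88% of changes of 2 and 92% of changes of 3. Scipy 1.17.1 gave exact permutation tests and matplotlib 3.10.9 the figures. With 3 arrays a group the smallest two-sided exact p is 0.1.

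The members and lists were chosen with earlier results of these data known. All member probe sets are described. From each list the 3 genes with the smallest unadjusted p are named; TAFAZZIN, HADHB and TRIAP1 were added after their values were seen, for their known role. The 5 genes most like CRLS1 by Pearson r are also named. Alternatives were a replicate block, quantile normalization, median centring, brighter probe sets alone, a variance trend with robust moderation, the poly-A spike-in mean as a covariate, averaged probe sets, a minimum fold of 1.5 and leaving out arrays. The comparison of endosulfan 1 and 2 with control 2, which have like spike-in levels, and the counts over the lists under each alternative were chosen after seeing the data.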

Additional observations from a re-analysis of the deposited data

Results flagged for a closer look

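A probe set annotated to NDUFS3 and PTPMT1 together, which the rule for members leaves out, was higher on all endosulfan arrays, at 9.57, 9.30 and 9.31, with means of 9.39 ± 0.15 and 8.95 ± 0.16 in control arrays (SD, n = 3 each), a log2 difference of 0.44 ± 0.13 (SE). It cannot be assigned to either gene. One of the 2 probe sets annotated to PLSCR3 and its readthrough transcript TMEM256-PLSCR3, also outside the rule, was at 5.97, 5.92 and 6.01 in endosulfan arrays, against 5.51, 5.67 and 5.86 in control arrays, a difference of 0.29 ± 0.12 (SE). The other overlapped, at 7.42, 7.20 and 7.41 in endosulfan arrays, against 6.74, 7.26 and 7.09 in control arrays, or 0.31 ± 0.15 (SE). PLSCR3 is a mitochondrial scramblase that moves cardiolipin towards the outer membrane, and no value can be given to it alone.

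Among the array's own control probe sets, which the comparison does not use, the hybridization controls added after labelling were higher in endosulfan arrays by 0.63, with means of 10.93 ± 0.18 and 10.29 ± 0.29 in control arrays (SD, n = 3 each, two-sided exact permutation p = 0.1). The 3' minus 5' difference of GAPDH, a sign of RNA integrity, was higher in endosulfan arrays by 0.09, with means of 0.84 ± 0.04 and 0.75 ± 0.06 in control arrays (SD, n = 3 each, two-sided exact permutation p = 0.1). The same measure of beta-actin overlapped, with means of 3.67 ± 0.10 in endosulfan and 3.59 ± 0.07 in control arrays (SD, n = 3 each, two-sided exact permutation p = 0.3). The p-values of the hybridization controls and of GAPDH are the smallest that 3 arrays against 3 can give, and the part of these measures in the cardiolipin differences was not tested.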

How the results depend on the processing

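No cardiolipin probe set and no gene of the lists passed the threshold under any alternative that was fitted. The 4 probe sets past it over the whole array became 0 with the replicate block and with the spike-in covariate, 1 without control 1 and endosulfan 1 together, and 0 to 7 with 1 array left out. The 8 cardiolipin probe sets at an unadjusted p below 0.05 became 5 with the replicate block, 1 with the spike-in covariate, 5 without control 1 and endosulfan 1 together and 4 to 10 with 1 array left out. The 11 higher list genes at that level numbered 5 with the replicate block, 1 with the spike-in covariate and 3 to 17 with 1 array left out. The 15 lower ones numbered 0 with the spike-in covariate, 9 without control 1 and endosulfan 1 together and 7 to 19 with 1 array left out. The cause was not tested. Whether same-numbered arrays were handled together is not stated in the labels. Their deviations from the group means correlated at -0.51, -0.40 and 0.05. With 3 arrays a group, these values cannot show whether such arrays shared a culture or a day. Of the 28 probe sets, 19 kept their sign in every fitted alternative, and 24 did with the spike-in covariate and 24 without endosulfan replicate 1. Probe sets near the background, such as those of CDS1, limit what can be seen.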
